A study of Mus musculus with 30 samples.

Results

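5-formylcytosine (5fC) was set against 5-hydroxymethylcytosine (5hmC) in mouse embryoid bodies (EB), by comparing the list of regions enriched for 5fC with the list of regions enriched for 5hmC on chromosomes 1 to 19 and X. The members are all regions of these 2 lists, 24727 of 5fC and 101593 of 5hmC, which makes 126320 of the 694490 regions in the 8 lists of the series on the same chromosomes. A 5fC region was taken to lie on 5hmC when at least 1 bp of it fell into a 5hmC region. The EB were grown from Tdg fl/fl ES cells, which carry floxed alleles of the thymine DNA glycosylase gene and keep it undeleted, on a C57BL/6-ICR background. LIF and the inhibitors CHIR99021 and PD0325901 were withdrawn, and EB were collected after 5 days in suspension. Each EB list rests on 2 libraries, which the authors pooled into 1 list per mark, and 4 of the 30 libraries of the series come from EB. Lists of Tdg fl/fl ES cells and of Tdg -/- ES cells, kept undifferentiated in both cases, are used for comparison, as is a list of p300 binding in Tdg fl/fl ES cells.

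TET dioxygenases oxidize 5-methylcytosine to 5hmC and then to 5fC, so 5hmC is the direct precursor of 5fC on the same base. Thymine DNA glycosylase cuts 5fC out of DNA, and base excision repair then restores an unmodified cytosine. In ES cells 5fC is known from enhancers and other regulatory DNA, where it marks sites of active demethylation. EB are aggregates in which cells leave pluripotency and start towards the germ layers, so the DNA is a mixture from several kinds of cell. A region with fewer carrying cells and a region with less of the mark in each cell cannot be told apart in such bulk DNA.

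Each mark has 1 pooled list, so the values below have no replicate error and were not tested. Shares are given with Wilson 95% intervals, and differences of shares with normal 95% intervals, and both cover counting error only. The score of a region is the authors' own, minus 10 times the log10 of its p-value, and it rises with sequencing depth, which is unknown. 5hmC regions covered 126 Mb, with a median width of 1056 bp, a median score of 103.5 and a highest score of 3044. 5fC regions covered 19.2 Mb, with a median width of 721 bp, a median score of 72.5 and a highest score of 822.7. The lowest score was 50 in both lists. The RNA libraries of the series come from ES cells, so the label of the EB could not be set against marker genes, and control enrichments without NaBH4 were not analysed here.

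Most 5fC lay on 5hmC, while most 5hmC regions held no called 5fC. Of the 5fC regions, 19047 (77.0%, interval 76.5 to 77.6) lay on 5hmC. Of the 5hmC regions, 18117 (17.8%, interval 17.6 to 18.1) held 5fC. Counted in base pairs, 76.7% of the 5fC sequence was inside 5hmC regions and 11.7% of the 5hmC sequence was under 5fC. The corresponding shares in Tdg fl/fl ES cells were 89.4% of 5fC regions and 32.6% of 5hmC regions, and in Tdg -/- ES cells, where 5fC is not excised by the glycosylase, 89.0% and 54.9%. The EB 5fC list was the shortest of the 3, and the lowest 5fC score was 60.9 in the Tdg fl/fl ES list against 50 in the other two, so the lists do not share a floor. All values of EB and ES cells are therefore set side by side, and their differences were not tested. The 1 bp rule decided few cases: 28 5fC regions shared less than 100 bp with 5hmC, with a median score of 60.9, and 73 lay less than 100 bp outside it, with a median score of 62.6. With scores of at least 100 required in both lists, the share of 5hmC regions with 5fC was 8.69%.

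Wide 5hmC regions held 5fC far more often than narrow ones. Width classes include their lower and not their upper border, here and for scores. Among 5hmC regions under 600 bp, 130 of 4270 (3.04%, interval 2.57 to 3.60) held 5fC. The share was 4.97% between 600 and 800 bp, 8.13% between 800 and 1000 bp and 16.5% (interval 16.1 to 16.9) between 1000 and 1500 bp. It then rose to 31.8% between 1500 and 2000 bp, to 48.3% between 2000 and 3000 bp and to 68.9% (interval 67.1 to 70.6) in the 2587 regions of 3000 bp or more. Each class thus stood above the one before it beyond counting error. Regions of 1500 bp or more made up 22.5% of the 5hmC list and 52.7% of the 5hmC regions with 5fC. The difference between regions of at least 2000 bp (53.3%) and under 800 bp (4.57%) was 48.7 percentage points (interval 47.7 to 49.7), and it was above 0 on 20 of 20 chromosomes, from 42.6 to 52.6 points on the autosomes. It was 25.0 points with scores of at least 100 required in both lists, a cut that removed a larger part of the 5fC list than of the 5hmC list.

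**Figure D1:**
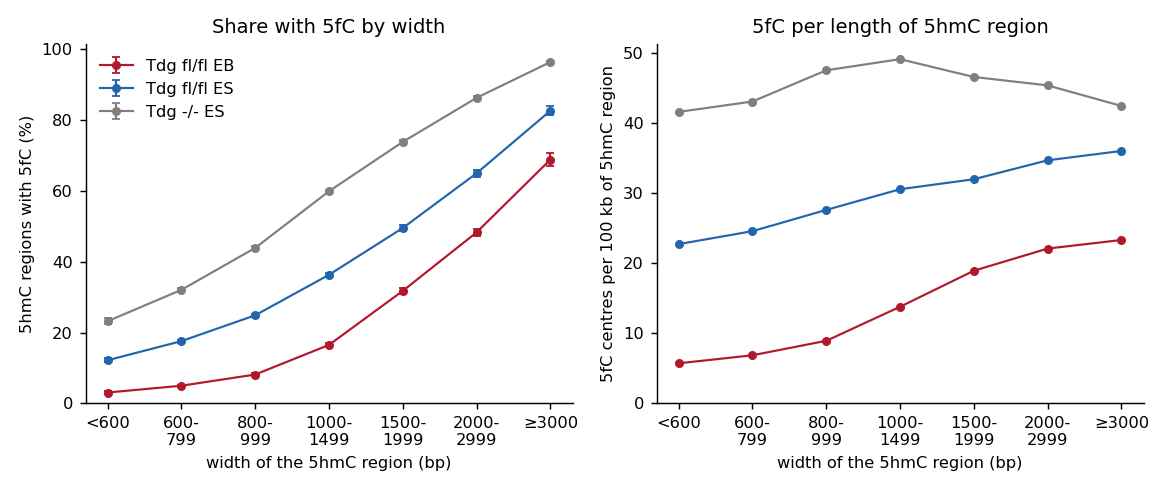
Left, the percentage of 5hmC regions that hold 5fC (y axis) in classes of 5hmC width in bp (x axis), with Wilson 95% intervals; right, 5fC centres per 100 kb of 5hmC region in the same classes. Lines are EB, Tdg fl/fl ES cells and Tdg -/- ES cells, 1 pooled list pair each; the EB share climbs from 3.04% to 68.9% and the EB number per 100 kb from 5.70 to 23.3.

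A wide region offers more room for 5fC, so the number of 5fC centres was also counted per length. In EB there were 5.70 5fC centres per 100 kb of 5hmC region in the class under 600 bp, 13.8 between 1000 and 1500 bp and 23.3 at 3000 bp or more. The widest class thus held 4.08 times as many per length as the narrowest. The same ratio was 1.59 in Tdg fl/fl ES cells (22.7 to 36.0 per 100 kb) and 1.02 in Tdg -/- ES cells (41.5 to 42.4 per 100 kb). Per length of 5hmC region, EB therefore had the steepest gradient of the 3 list pairs, a difference that has no replicate check and was not tested. The 5fC lists differ in size and width: Tdg fl/fl ES cells had 57016 regions with a median of 543 bp and Tdg -/- ES cells 120051 with a median of 770 bp.

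Strong 5hmC regions also held 5fC more often than weak ones. Of 5hmC regions with scores from 50 to 60, 4.27% held 5fC. The share was 13.1% for scores from 100 to 150, 33.8% from 200 to 300, 53.7% from 300 to 500 and 77.8% (interval 76.3 to 79.1) at 500 or more. Width and score of a 5hmC region are themselves related, with a Spearman rho of 0.39 across 101593 regions of the same libraries, so the classes were crossed. Among regions of 1000 to 1500 bp, the share with 5fC went from 3.53% at scores under 80 to 55.3% at 300 or more. Among regions with scores under 80, it went from 1.00% under 600 bp to 56.2% at 3000 bp or more. For scores of 150 to 300 the share moved little with width below 1500 bp: it was 18.3%, 18.0%, 18.1% and 21.0% in the 4 narrowest classes. In this score class it was 34.4% from 1500 to 2000 bp and reached 74.2% at 3000 bp or more. Standardised for score, the difference between regions of at least 2000 bp and under 800 bp was 36.0 points (interval 34.8 to 37.3).

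**Figure D2:**
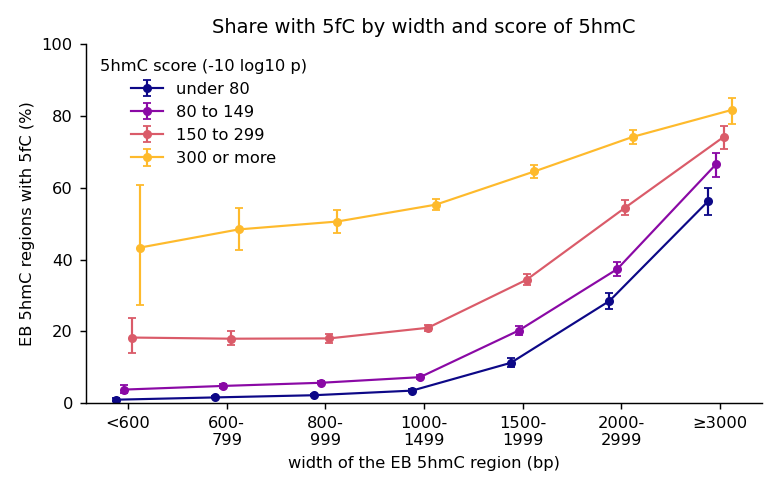
The percentage of EB 5hmC regions with 5fC (y axis) by width of the 5hmC region in bp (x axis), with 1 line for each class of 5hmC score and Wilson 95% intervals. Regions of 1000 to 1500 bp range from 3.53% at scores under 80 to 55.3% at 300 or more, and lines of low score turn upward from 1500 bp.

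5fC and 5hmC scores were weakly related where the marks met. Over the 19100 overlapping pairs, Spearman's rho was 0.32 between the 2 scores and 0.47 between the 2 widths, a description of pairs that share cells and position. 5hmC regions with 5fC had a median width of 1557 bp and a median score of 225.5, against 1003 bp and 92.7 for those without. The 3 5hmC regions with the highest scores and no 5fC show that strong 5hmC can lack a call. They lay at chr8:72974895-72977605 (score 1909), chr7:91030263-91031925 (1672) and chr11:100234917-100235994 (1462), all in mm9. The first was 665 bp from the nearest EB 5fC region and was in the ES lists of both 5fC and 5hmC in both genotypes. The second, 982 bp from 5fC, was in none of these ES lists but overlapped a fl/fl ES p300 region.

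Crowded 5hmC regions held 5fC more often than isolated ones over all widths, a difference that mostly went away with width held equal. Crowding was measured as the number of other 5hmC centres within 50 kb. With 0 to 1 such neighbours 11.2% of 5hmC regions held 5fC (713 of 6372), with 4 to 6 it was 14.8%, and with 11 or more 21.4% (8504 of 39796). Crowded regions were also wider, with a median of 1158 bp at 11 or more neighbours against 873 bp at 0 to 1. Within width classes the rise was small or missing. Between 800 and 1000 bp the share still rose in each step, from 7.19% in the sparsest to 8.61% in the most crowded class. Between 1000 and 1500 bp the shares were 17.6%, 15.3%, 15.6%, 16.5% and 17.0% in the same order, and between 2000 and 3000 bp they were 50.6%, 48.7%, 49.5%, 46.8% and 48.7%. Of the 7 width classes, only between 600 and 800 bp did the most crowded class (6.05%, interval 5.41 to 6.76) stand clear of the sparsest (3.60%, interval 2.83 to 4.57).

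The difference between regions with at least 7 neighbours and those with 0 or 1 was 8.72 points before standardising and -0.44 points (interval -1.69 to 0.80) with width held equal. It was above 0 on 8 of 20 chromosomes, and on autosomes ran from -5.63 on chromosome 8 to 9.30 on chromosome 11. The same standardised difference was 9.12 points (interval 7.22 to 11.02) in Tdg fl/fl ES cells and 1.85 (interval -0.57 to 4.26) in Tdg -/- ES cells. The EB value depends on the window: it was 1.502 points with neighbours counted within 20 kb and -5.15 within 200 kb.

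**Figure D3:**
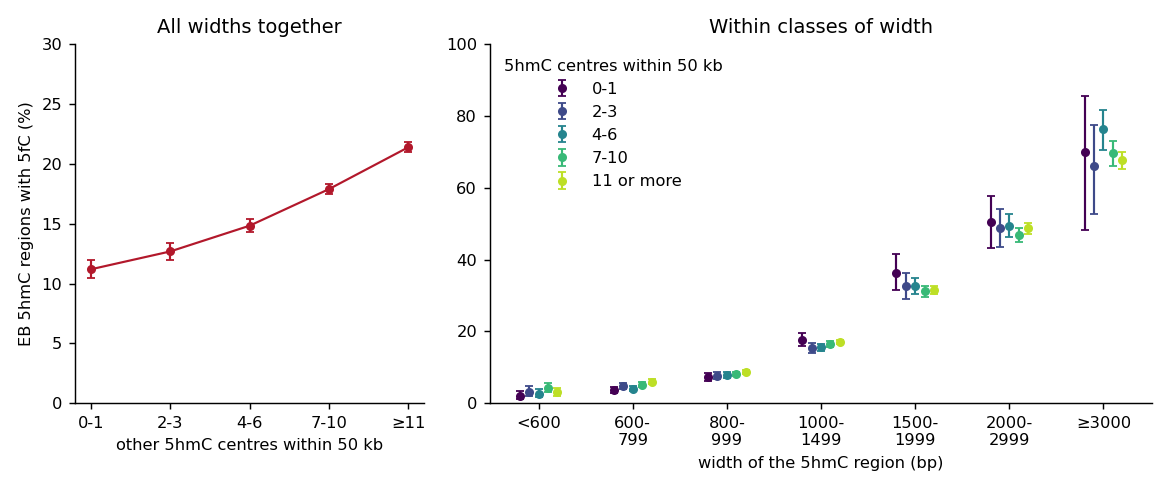
The percentage of EB 5hmC regions with 5fC (y axis) by the number of other 5hmC centres within 50 kb, over all widths (left) and within classes of 5hmC width in bp (right), with Wilson 95% intervals. The share rises from 11.2% to 21.4% on the left, while on the right points of different crowding mostly overlap within a width class.

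Where the marks met, 5fC sat inside the 5hmC region. Of the 19100 pairs, 17360 (90.9%) had the 5fC region wholly inside, 1704 (8.92%) had it crossing an edge and in 36 it enclosed the 5hmC region. A 5fC region that crossed an edge reached a median of 46 bp beyond it, or 6.24% of its own width. 53 5fC regions bridged a pair of 5hmC regions. 5hmC regions with 5fC were covered by it over a median of 49.9% of their width (quartiles 37.0 and 62.8%). The median part covered fell from 72.8% in regions of 600 to 800 bp to 29.5% at 3000 bp or more. 5fC thus filled a smaller part of wide 5hmC regions. In the EB lists 5fC at an edge was rarer than in Tdg -/- ES cells, where 26.7% of pairs crossed an edge, and near the 10.2% of Tdg fl/fl ES cells, though 5fC regions of Tdg -/- cells were also wider, with a 90th percentile of 1500 against 1129 bp.

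Position along the 5hmC region depended on its width. A 5fC region of some width is bound to have its centre near the middle of a region that encloses it, so placement was measured within the room left over, as the gap before 5fC over the sum of the gaps on both sides. Placed anywhere with equal chance, 33.3% of 5fC regions alone in their 5hmC region would fall into the middle of 3 equal parts of that room. Of the 17334 5fC regions inside 5hmC with at least 50 bp of room, 6463 (37.3%, interval 36.6 to 38.0) did. In 5hmC regions of 1000 to 1500 bp the value was 51.0% (interval 49.7 to 52.4, n = 5241), so 5fC there was centred. Narrower regions did not share this to the same degree. The middle share was 39.9% (interval 37.5 to 42.4) between 800 and 1000 bp and 34.8% (interval 30.8 to 39.0, n = 514) between 600 and 800 bp. Under 600 bp it was 52.4%, with only 42 placements (interval 37.7 to 66.6). In wider regions it was 32.2% (interval 30.7 to 33.7) between 1500 and 2000 bp, 27.9% (interval 26.5 to 29.3) between 2000 and 3000 bp and 29.3% (interval 27.4 to 31.2) at 3000 bp or more. In these widest regions 41.2% of placements fell into the outer parts, within the first or last 16.7% of the room, and they did so evenly, with 35.5% in the first and 35.2% in the last of the 3 equal parts. However, 24.8% of the 5hmC regions with 5fC of this width held 2 or more 5fC regions, and 8.97% between 2000 and 3000 bp. Such 5fC regions exclude one another, so 33.3% is not their even share. Their part in the low middle shares was not tested. From 1500 bp the middle share was below 33.3% in ES cells too, for example 24.4% in Tdg fl/fl and 23.4% in Tdg -/- cells between 1500 and 2000 bp. With regions closer than 1 kb merged, the middle share over all widths was 33.0%, which is no longer above 33.3%.

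**Figure D4:**
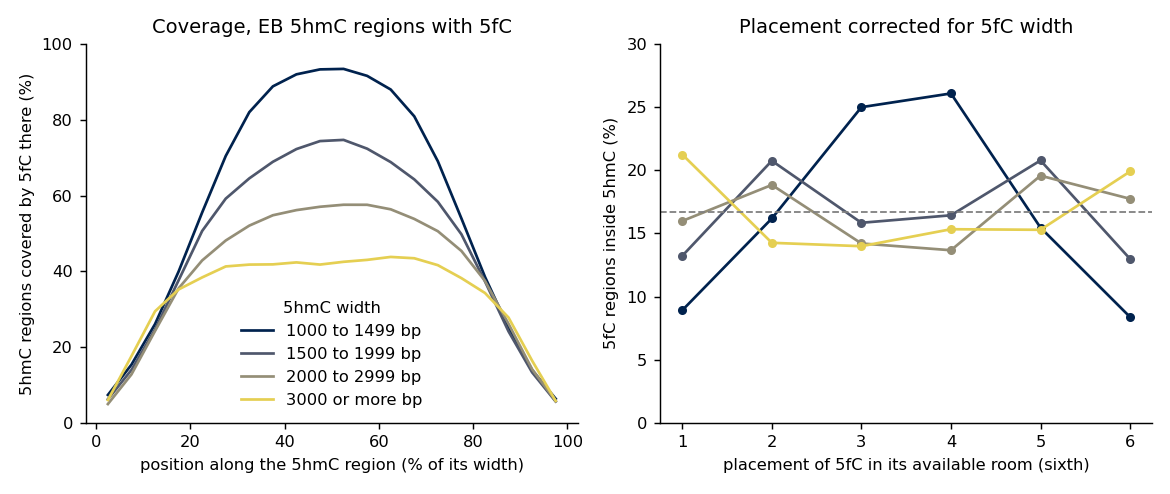
Left, the percentage of EB 5hmC regions with 5fC that are covered by 5fC (y axis) along the 5hmC region, in percent of its width (x axis); right, the percentage of 5fC regions (y axis) in each of 6 equal steps of the room left inside the 5hmC region (x axis), with the even share of a 5fC region alone in its 5hmC region as a dashed line. Lines are classes of 5hmC width. At the centre coverage, which is not corrected for the width of 5fC, is 93.4% for 1000 to 1500 bp and 42.1% for 3000 bp or more, where it forms a plateau.

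Coverage along the region was also read directly, without correction for the width of 5fC. In regions of 1000 to 1500 bp that held 5fC, 93.4% had it at the very centre and 6.85% on average in the outermost bins, each 5% of the width. In regions of 3000 bp or more, 42.1% had it at the centre and 39.8% and 39.9% between 20 and 30% and between 70 and 80% of the width. The outermost bins of these regions were covered in 5.90%. Coverage thus peaked at the centre of regions of 1000 to 1500 bp and was flat over the inner part of the widest. Low values in the outermost bins are built in, since a 5fC region that lies wholly inside can seldom reach them, and say nothing of placement.

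Some wide regions held several 5fC regions. Of the 5hmC regions with 5fC, 17208 held 1, 846 held 2, 55 held 3, 6 held 4, 1 held 5 and 1 held 6. The 909 with 2 or more had a median width of 2964 bp. They made up 24.8% of the 5hmC regions with 5fC at 3000 bp or more and 0.40% of those between 1000 and 1500 bp. Neighbouring 5fC regions in 1 5hmC region were a median of 260 bp apart (10th and 90th percentile 29 and 1163 bp). The region with 6 lay at chr4:109653048-109661412 (8364 bp, score 225.2), the one with 5 at chr10:42347980-42354636 (6656 bp, score 50.3) and the first of those with 4 at chr2:105499247-105503895 (4648 bp, score 210.8). In the chromosome 4 region the 5fC scores were 67.3, 125.5, 122.8, 103.8, 224.2 and 203.1 from its start, so the strongest 5fC lay towards one end. In the chromosome 10 region the 5hmC score was near the lowest of the list while 5fC scores reached 298.5 in its middle.

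The widest 5hmC regions with 5fC were not those with the highest scores. The widest, at chr8:73287129-73299255 (12126 bp, score 92.8), had 2 5fC regions over 1866 bp. The next, at chr11:98826128-98835675 (9547 bp, score 94.2), had 1 over 2906 bp, and chr2:158434321-158443155 (8834 bp, score 146.7) had 3 over 4394 bp. All 3 were in the 5fC and 5hmC lists of ES cells of both genotypes. The highest 5fC scores on 5hmC were 822.7 at chr19:45303636-45305269, 822.1 at chrX:166431692-166434283 and 631.6 at chr5:28497273-28498008. Those on chromosomes 19 and 5 lay wholly inside 5hmC regions of 7517 and 4408 bp, and that on chromosome X shared 1703 of its 2591 bp with a 5hmC region of 3364 bp. Which genes lie at these mm9 positions was not analysed here.

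The 5fC regions without 5hmC numbered 5680 (23.0% of the list). They were nearly as wide as the others, with a median of 706 against 725 bp, and scored lower, with a median of 65.4 against 74.9. The share with 5hmC rose with the 5fC score, from 69.6% (interval 68.5 to 70.7) at 50 to 60 to 83.9% (interval 82.8 to 85.0) at 100 to 150 and 87.8% at 150 to 200. It did not go on rising: at 300 to 500, 135 of 155 (87.1%, interval 80.9 to 91.5) lay on 5hmC. Width of the 5fC region mattered less, with 74.1% on 5hmC under 600 bp and between 75.6 and 78.6% in the classes from 600 to 3000 bp.

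5fC without 5hmC lay in 5hmC neighbourhoods, mostly some kb away from the nearest 5hmC region. The median distance to the nearest 5hmC region was 3.04 kb (10th and 90th percentile 0.64 and 10.7 kb). 920 of the 5680 (16.2%, interval 15.3 to 17.2) lay within 1 kb (9.93% with the upper part of each list by score and 10.3% at scores of at least 100), 1988 (35.0%) between 2 and 5 kb, and 198 (3.49%) at 20 kb or more. Within 5 kb, 1168 (20.6%) had a 5hmC region on both sides and 2794 (49.2%) on 1 side. The number of 5hmC centres within 50 kb had a median of 11 and a 10th to 90th percentile range of 5 to 18. 5fC on 5hmC had the same values, but its count includes the 5hmC region it lies on, so the counts are not quite alike. Measured in base pairs, 5fC covered 11.7% of 5hmC regions, 0.31% of the sequence within 1 kb outside them, 0.57% between 1 and 2 kb and 0.60% between 2 and 5 kb. It then fell to 0.35% between 5 and 10 kb, 0.12% between 10 and 20 kb and 0.0097% beyond 20 kb. The band next to the borders was thus lower than the 3 bands that follow it. Part of this is built in, since a 5fC region that reaches a border is counted as lying on 5hmC.

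**Figure D5:**
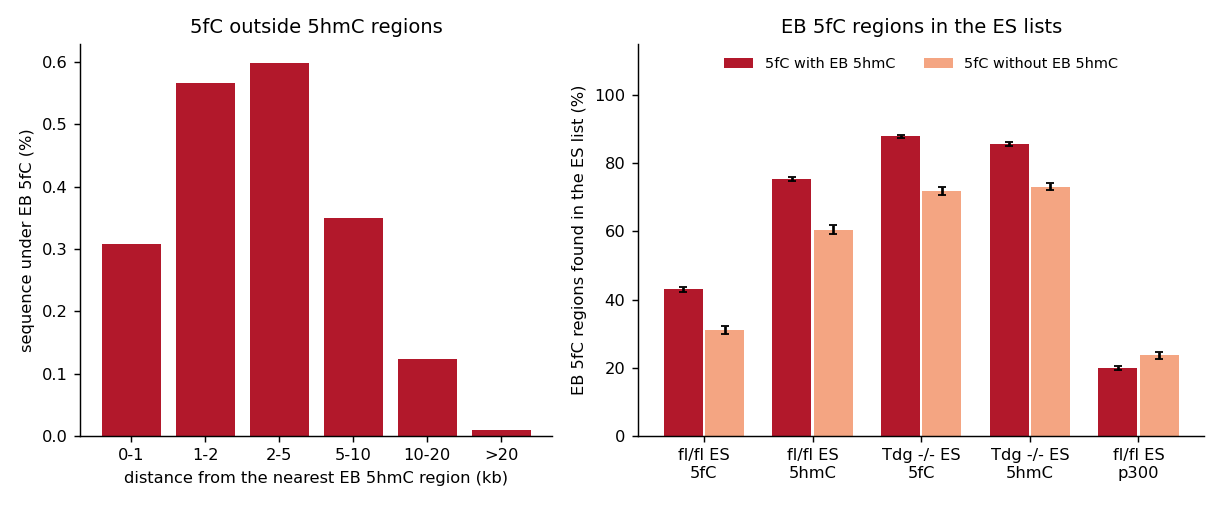
Left, the percentage of sequence under EB 5fC (y axis) by distance from the nearest EB 5hmC region in kb (x axis), with its highest value outside 5hmC at 0.60% between 2 and 5 kb. Right, the percentage of EB 5fC regions found in each ES list (y axis), for those with and without EB 5hmC, with Wilson 95% intervals; those without are lower in the 5fC and 5hmC lists and higher for p300.

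The 5 highest-scoring 5fC regions without 5hmC were not alike. The first, at chr2:98504898-98505520 (score 659.8), lay 2344771 bp from any EB 5hmC region and was found in the Tdg -/- ES 5fC list but in no 5hmC list of ES cells. Whether this stretch gives signal without the mark was not tested. The others lay close to 5hmC: chr13:55113250-55114210 (408.4) at 318 bp, chr18:53628557-53629600 (376.6) at 752 bp, chr11:85701636-85702766 (376.6) at 776 bp and chr15:102793864-102794725 (372.5) at 2471 bp. These 4 were all in the 5hmC lists of ES cells of both genotypes and in the Tdg -/- ES 5fC list.

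Many of the 5fC regions without EB 5hmC had 5hmC in ES cells. In the Tdg fl/fl ES 5hmC list, 3436 of the 5680 (60.5%, interval 59.2 to 61.8) had a region, against 75.4% of the 5fC regions on EB 5hmC and 72.0% of all EB 5fC regions. In either ES 5hmC list, 75.4% of those without EB 5hmC had one, against 87.7% of those on EB 5hmC. The Tdg -/- ES 5fC list, which records where 5fC builds up when it is not excised, held 71.7% (interval 70.5 to 72.9) of them, against 87.9% (interval 87.4 to 88.3) of those on 5hmC and 84.2% of all. The Tdg fl/fl ES 5fC list held 31.0% and 43.0%, and 40.2% of all. At 5fC scores of 100 to 150 the Tdg -/- list held 90.2% of those without and 93.7% of those with 5hmC, against 59.3% and 80.9% at scores of 50 to 60, so the gap in this list was small among well-scoring 5fC. For fl/fl ES 5hmC a gap remained, with 70.1% and 79.8% at scores of 100 to 150, against 53.7% and 71.1% at 50 to 60.

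p300, an acetyltransferase bound at active enhancers, was mapped in ES cells only, so its list tells which EB regions were p300 sites in undifferentiated cells. Of all EB 5fC regions, 20.7% lay on a fl/fl ES p300 region. Those without 5hmC did so at 23.6% (1340 of 5680, interval 22.5 to 24.7) and those with it at 19.9% (3781 of 19047, interval 19.3 to 20.4), a difference of 3.74 points (interval 2.50 to 4.98) that was above 0 on 19 of 20 chromosomes. It was 4.90 points with 5fC score held equal. The direction was the same in each width class of 5fC from under 600 bp (19.9 against 16.4%) to 1500 to 2000 bp (32.6 against 26.6%), though the intervals overlap from 1000 bp upward. By 5fC score the share was higher without 5hmC in each class below 150. It was 25.7% of 148 against 26.1% of 1063 at 150 to 200, and 34.5% of 84 against 26.4% of 575 at 200 to 300, where the intervals overlap. The difference was 8.63 points in Tdg -/- ES cells and 0.24 points (interval -0.47 to 0.95) in Tdg fl/fl ES cells.

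Seen from 5hmC, 12.2% of EB regions lay on ES p300, namely 22.9% of those with 5fC (4144 of 18117) and 9.84% of those without (8216 of 83476). With width held equal the difference was 8.26 points (interval 7.52 to 9.01), and with width and score both held equal 9.49 points (interval 8.37 to 10.6). It was above 0 on each autosome, from 4.24 to 12.9 points, and -0.42 points on chromosome X. Among 5hmC regions of 600 to 800 bp, 15.5% with 5fC and 6.04% without were at ES p300 sites, and at 3000 bp or more 34.6% and 27.0%. The value was 1.59 points in Tdg fl/fl ES cells and 7.30 in Tdg -/- ES cells, differences that were not tested. In EB it was 3.82 points when regions below the median score of their list were dropped, and 4.96 points at scores of at least 100. Both settings also cut the p300 list, so fewer p300 regions were left to overlap. These 2 values therefore do not show how the difference moves with 5fC and 5hmC scores alone.

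Over all widths, EB 5hmC regions with 5fC were more often in the ES 5fC lists than those without. Of all EB 5hmC regions, 63.8% overlapped Tdg fl/fl ES 5hmC, 78.0% Tdg -/- ES 5hmC, 28.2% Tdg fl/fl ES 5fC and 61.9% Tdg -/- ES 5fC. For fl/fl ES 5fC the share was 47.6% of those with EB 5fC and 23.9% of those without, and for Tdg -/- ES 5fC 89.2% and 55.9% (46675 of 83476). Regions with 5fC were wider, and within width classes these gaps were smaller in wide regions. At 1000 to 1500 bp the fl/fl ES 5fC list held 42.1% and 26.9%, at 2000 to 3000 bp 57.9% and 54.7%, and at 3000 bp or more 71.0% and 68.0%. For fl/fl ES 5hmC the shares were 78.0% and 60.7% over all widths, but 71.3% and 69.0% at 1000 to 1500 bp and 90.3% in both classes at 2000 to 3000 bp. A gap remained in narrower regions, with 51.5% and 42.2% at 600 to 800 bp and 60.1% and 53.2% at 800 to 1000 bp. Under 600 bp the shares were 30.8% and 31.5%.

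The ES state of a 5hmC region went with its 5fC in EB. EB 5hmC regions that had both 5hmC and 5fC in Tdg fl/fl ES cells held EB 5fC at 30.7% (8286 of 27001). Those with fl/fl ES 5hmC and with 5fC in the Tdg -/- list but not in the fl/fl list did so at 21.0% (5357 of 25531). Those with fl/fl ES 5hmC but no 5fC in either genotype did so at 3.97% (488 of 12305). Each ES list was set against the EB 5hmC region, so ES 5fC and ES 5hmC need not overlap each other. Regions with no 5hmC in either ES genotype, 19336 in all, held EB 5fC at 9.80% (1894). These classes differ in width, with medians of 1353, 1183, 949 and 858 bp, and in score, with medians of 151.0, 130.3, 82.1 and 76.6.

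Held equal in both width and score, over 21 classes that cover 95.4% of EB 5hmC regions, the order changed. The share with 5fC was then 20.2% (interval 19.3 to 21.1) for 5hmC regions absent from both ES lists, 15.99% (interval 15.6 to 16.4) for those with ES 5fC, 14.3% (interval 13.9 to 14.7) for those with 5fC only in Tdg -/- cells and 8.62% (interval 7.74 to 9.51) for those without ES 5fC. With width alone held narrow the order was another. Between 1000 and 1500 bp, 2266 of 9626 regions with ES 5hmC and 5fC (23.5%, median score 167.6), 797 of 4770 5hmC regions in neither ES list (16.7%) and 175 of 4254 with ES 5hmC but no ES 5fC (4.11%) held 5fC, and the median scores of the last pair were 99.4 and 93.5. Regions absent from both ES lists thus stood above those with ES 5fC only once score was held equal as well. The classes were cut by the ES lists after their overlaps were known, and no replicate stands behind these shares.

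Across chromosomes the 2 lists kept a similar relation, with chromosomes 11 and X at the ends of the range. On autosomes between 15.4% (chromosome 13) and 20.9% (chromosome 11) of 5hmC regions held 5fC, with a median of 17.8%. Chromosome 11 had 30.8 5fC regions per 100 5hmC regions against an autosomal median of 24.0, and the lowest share of 5fC on 5hmC, 71.6%, where chromosome 16 had the highest, 83.2%. In the Tdg fl/fl ES lists chromosome 11 had 6596 5hmC and 2582 5fC regions, against 14553 and 10395 in the Tdg -/- lists. Overlaps with the fl/fl ES lists were not adjusted for this. On chromosome X 9.92% of 837 5hmC regions held 5fC, with 12.7 5fC regions per 100, and its 5hmC regions were narrow, with a median of 901 bp. The share on chromosome X was low in ES cells too, at 15.8% in Tdg fl/fl and 48.1% in Tdg -/- cells, against 32.6% and 54.9% over all chromosomes. Leaving out chromosome X moved the share over all chromosomes to 17.9%.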

How the data were processed

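DNA enriched for 5fC or 5hmC by selective chemical labelling was sequenced from 2 EB libraries each, after 18 PCR cycles per the labels' protocols. Per the labels, the authors deposited 1 region list per mark and group for all its libraries together. Each region's score was taken as 10 times the negative log10 of its p-value, as the deposited ES 5fC and 5hmC lists state in their header; the EB and p300 lists carry none and were treated alike. The submitters' processing notes name MACS 1.4, Bowtie and mm9; the sources used here give no calling threshold and no read numbers, so depth is unknown. Positions are printed as deposited, and whether starts count from 0 or 1 is not given.

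From these lists, overlaps of at least 1 bp, widths, distances and placements were computed with Python 3.11.15, numpy 2.4.6 and pandas 2.3.3, checked on simulated lists with known overlaps. Chromosome Y (4 5fC regions) was left out. Standardised differences are means over classes of width, score or both, weighted by the number of regions in each; the comparison by ES state used classes with at least 10 regions of each state. Named regions are the 3 5fC regions with the highest scores on 5hmC and the 5 without it, the 3 widest 5hmC regions with 5fC, the 3 with the highest scores without it and the 3 with most 5fC regions. The members, classes and measures were chosen with earlier results of these data known. Alternatives changed the overlap rule, score minimum, merging, density window, 5hmC borders and chromosomes; leaving out a library was not possible with pooled lists. Whether libraries came from separate cultures is not given.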

Additional observations from a re-analysis of the deposited data

Results flagged for a closer look

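The middle placement of 5fC inside 5hmC stood on opposite sides of the even share of 33.3% in different cells. It was 37.3% in EB and 31.4% in Tdg -/- ES cells, with counting intervals that do not reach 33.3%. With regions closer than 1 kb merged, the EB value was 33.0% and no longer stood above the even share. Tdg fl/fl ES cells had 36.8%. Only 5fC wholly inside 5hmC could be placed, which was 90.9% of pairs in EB and 71.3% in Tdg -/- ES cells. By width class the EB value was above that of Tdg -/- ES cells except between 600 and 800 bp (34.8 against 37.1%) and between 800 and 1000 bp (39.9 against 45.6%). Each value comes from 1 pooled pair of lists, and the difference was not tested. The even share of 33.3% applies to a 5fC region alone in its 5hmC region, and 5fC regions that share one were not set apart. 5fC regions were wider in Tdg -/- ES cells, with a median of 770 against 721 bp in EB, and their part in the difference was not tested.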

How the results depend on the processing

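Of 57 recomputed values, 33 moved by less than their counting interval and 24 moved further. No value whose own interval was clear of 0 changed sign, but the crowding difference, -0.44 points with an interval that holds 0, was above 0 under some settings. With regions closer than 1 kb merged, 20.1% of 5hmC regions held 5fC, 78.1% of 5fC regions lay on 5hmC, the width difference was 41.7 points and the middle placement 33.0%. With regions at or above the median score of each list, the shares were 16.9% and 71.7%, the width difference 37.3 points, 5fC within 1 kb of 5hmC 9.93% and 5fC without EB 5hmC but with fl/fl ES 5hmC 52.1%. The fl/fl ES 5hmC list was cut in the same way. A score of at least 100 in each list gave 8.69%, 77.6%, 25.0 points and, for 5fC within 1 kb, 10.3%. That cut removed a larger part of the 5fC list than of the 5hmC list. Extending 5hmC borders by 500 bp put 78.8% of 5fC on 5hmC. Standardising for score, chosen after seeing the data, gave a width difference of 36.0 points. The crowding difference was 1.502 points with 20 kb, -5.15 with 200 kb and 8.72 without standardising for width. Its class borders were not scaled with the window. Judged by its centre, 66.4% of 5fC lay in the middle 33.3% of the 5hmC region, a measure that the width of 5fC pushes upward. Requiring 50% of the 5fC region inside 5hmC, or leaving out chromosome X, moved none of these values beyond the interval. No paired analysis was possible because the replicates of each mark were pooled into 1 list. The score contrast of 5hmC could not be computed with low scores removed. Unknown depth limits every share: weak 5fC or 5hmC below the calling threshold counts here as absent.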

Other observations

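A small set of EB 5fC regions stood outside every 5fC and 5hmC list of ES cells as well as outside EB 5hmC. It held 1008 of the 5680 regions without EB 5hmC (17.7%, interval 16.8 to 18.8). Their median score was 58.5 and their median width 567 bp, against 67.9 and 737 bp for the other 4672, so they were among the weakest calls. Still, 34.3% of them overlapped a Tdg fl/fl ES p300 region, against 21.3% of the others, and 62.1% lay within 5 kb of an EB 5hmC region, against 71.4%. Among 5fC regions on EB 5hmC, 1209 (6.35%, interval 6.01 to 6.70) were in no ES list of either mark. The same held for them: 526 (43.5%) overlapped a Tdg fl/fl ES p300 region, against 18.2% of the other 17838, so the higher p300 share was not limited to 5fC without EB 5hmC. Their median score was 65.1 and their median width 612 bp, against 75.7 and 734 bp.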
